A study of Mus musculus with 11 samples.

Results

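The genes described here are the mouse receptors for the constant (Fc) part of IgG, their shared signalling chain and the related gene Fcrls. They were chosen by name, and all 6 (Fcgr1, Fcgr2b, Fcgr3, Fcgr4, Fcer1g and Fcrls) were found among the 16894 genes of the deposited table by their Entrez identifiers. Microglia are the resident macrophages of the brain, and their RNA had been sequenced in 3 groups of libraries: cultured primary cells (n = 3), resident cells (n = 4) and transplanted cells (n = 4). All libraries carry the genotype Cx3cr1-GFP, a green fluorescent reporter at a gene that microglia express. Resident and transplanted cells were sorted by fluorescence from brain, the transplanted cells 3 months after transplantation, whereas the cultured libraries are labelled as cell culture. The labels attach 1 protocol to every library: PLX3397, which blocks Csf1r signalling and depletes microglia, given at 600 mg/kg in chow over 3 cycles before transplantation. Whether mice used for resident cells were fed it, and where the transplanted cells came from, is not stated. Nor is it stated whether the libraries of a group are separate animals or cultures. The p-values below therefore cover the spread between libraries alone, which may be technical.

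Fc receptors bind the antibodies that coat a microbe, a cell or a protein aggregate and so let a macrophage take it up. Fcgr1 (CD64, the high-affinity receptor for IgG), Fcgr3 and Fcgr4 are activating receptors. They have no signalling motif of their own and work through the adaptor Fcer1g, the Fc receptor gamma chain, whose ITAM motif is phosphorylated by Src-family kinases and then recruits the kinase Syk. Fcgr2b is the inhibitory receptor: its ITIM motif recruits the phosphatase SHIP1, the product of Inpp5d, which opposes that signal. Fcrls, an Fc receptor-like protein with a scavenger receptor domain, is a commonly used marker of microglia among brain and blood myeloid cells.

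On GRCm38.p6, 4 of the genes lie within 274 kb of chromosome 1: Fcgr2b at chr1:170960558-170976071 on the minus strand, Fcgr4 at chr1:171018926-171029761 on the plus strand, Fcgr3 at chr1:171051169-171065915 on the minus strand and Fcer1g at chr1:171229572-171234349 on the minus strand. Fcrls, at chr3:87250736-87263765, and Fcgr1, at chr3:96282909-96293969, both lie on the minus strand of chromosome 3. All 6 are annotated as protein coding.

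Fcgr2b and Fcgr3 share coding sequence, which bears on how their reads can be told apart. The longest run of coding bases that is identical in the 2 genes is 129 bases, shown here because a read that falls inside it cannot be assigned to either gene. In Fcgr2b it covers coding bases 278 to 406 of 1020, in exons 3 to 4 of 8 (chr1:170966674-170968081 on GRCm38, minus strand, with an intron between), and in Fcgr3 coding bases 263 to 391 of 801, in exons 3 to 4 of 5 (chr1:171054167-171057792, minus strand):
Fcgr2b and Fcgr3 shared run: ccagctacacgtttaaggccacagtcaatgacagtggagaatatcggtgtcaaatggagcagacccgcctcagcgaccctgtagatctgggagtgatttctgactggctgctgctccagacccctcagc
Of all 50-base windows in the protein-coding transcripts of the GENCODE M21 annotation, 4.48% of those of Fcgr2b also occurred in Fcgr3, and 10.2% of those of Fcgr3 in Fcgr2b. No other pair of the 6 genes shared a window of that length. In 100-base windows the 2 shares were 1.14% and 2.7%, and in 150-base windows 0% and 0%. How many reads are ambiguous therefore depends on their length. The deposited expected counts carry the same mark. Those of Fcgr2b and of Fcgr3 were not whole numbers in 10 of 11 libraries, yet their sum was whole in 11 of 11 (within 0.005 of a whole number), as were the counts of the other 4 genes. The authors' counting therefore divided some reads between Fcgr2b and Fcgr3, and a ratio between these 2 genes is less certain than one between any other pair.

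The 250 bases before an annotated transcript start are shown for Fcgr4 and Fcrls, the genes whose levels moved most between groups, and for Fcgr1, from RefSeq on GRCm38.p6. The Fcgr4 window is chr1:171018676-171018925 (plus strand), the Fcrls window chr3:87263525-87263774 (minus strand) and the Fcgr1 window chr3:96293970-96294219 (minus strand). The Fcrls window precedes a transcript start that lies 241 bases inside the outer end of the gene as given above, so that 241 of its 250 bases fall within that span. Capitals mark the core of the binding motif of PU.1, a transcription factor of myeloid cells, searched as GAGGAA on both strands, so that TTCCTC is its reverse complement:
Fcgr4: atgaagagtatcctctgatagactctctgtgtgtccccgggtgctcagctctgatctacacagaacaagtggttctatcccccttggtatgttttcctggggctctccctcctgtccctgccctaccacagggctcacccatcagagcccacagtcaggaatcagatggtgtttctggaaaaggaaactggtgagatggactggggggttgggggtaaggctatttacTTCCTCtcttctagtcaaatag
Fcrls: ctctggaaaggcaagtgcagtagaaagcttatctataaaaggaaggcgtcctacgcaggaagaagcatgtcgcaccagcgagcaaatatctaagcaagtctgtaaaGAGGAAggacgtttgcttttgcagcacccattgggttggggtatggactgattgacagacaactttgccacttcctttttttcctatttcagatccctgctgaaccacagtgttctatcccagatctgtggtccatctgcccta
Fcgr1: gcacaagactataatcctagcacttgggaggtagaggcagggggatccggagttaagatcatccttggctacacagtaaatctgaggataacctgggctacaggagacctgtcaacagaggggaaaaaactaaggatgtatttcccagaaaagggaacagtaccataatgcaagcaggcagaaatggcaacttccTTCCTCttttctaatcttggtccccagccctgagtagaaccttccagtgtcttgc
A match to GAGGAA was present in the windows of 4 of the 6 genes, namely Fcgr1, Fcgr3, Fcgr4 and Fcrls, against 23.3% of 32851 windows of the same length. Of these, the Fcgr1 and Fcgr4 windows lie outside the annotated gene. The Fcgr3 start lies 6512 bases inside the outer end of the gene, so its whole window falls within the gene, and its match was in both of the 2 windows listed for Fcgr3. The gamma interferon activation motif TTCNNNGAA occurred in the Fcgr1 window alone among the 6, from 109 to 101 bases before the start, and in 7.02% of all windows. The interferon-stimulated response motif, GAAA followed after any 2 bases by a second GAAA, occurred in the Fcgr4 window alone, from 73 to 64 bases before the start, and in 2.98% of all windows. These matches describe letters and are not evidence of binding.

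Levels are compared between genes in TPM, the authors' transcript abundance scaled for gene length. In resident microglia Fcrls stood at 4450 ± 438 TPM (SD, n = 4) and Fcgr3 at 4049 ± 151, and their libraries overlapped. Below them, without overlap between neighbours, came Fcer1g at 3365 ± 89.2, Fcgr2b at 673 ± 25.7, Fcgr1 at 282 ± 20.03 and Fcgr4 at 36.0 ± 2.56 TPM. Transplanted microglia had a similar ladder, with Fcgr3 at 4108 ± 490 TPM (SD, n = 4) and Fcrls at 3809 ± 172, again overlapping, then Fcer1g at 3158 ± 163, Fcgr2b at 832 ± 123, Fcgr1 at 355 ± 35.8 and Fcgr4 at 89.8 ± 29.1. In cultured microglia the ladder differed at both ends. Fcer1g led at 3861 ± 355 TPM (SD, n = 3), followed by Fcgr3 at 2797 ± 435, Fcgr2b at 425 ± 54.3, Fcgr4 at 274 ± 13.7, Fcgr1 at 163 ± 2.90 and, last, Fcrls at 108 ± 23.1, with no overlap between neighbours. Fcgr4 thus stood above Fcgr1 in each of 3 cultured libraries and below it in each of the 8 sorted libraries.

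**Figure D1:**
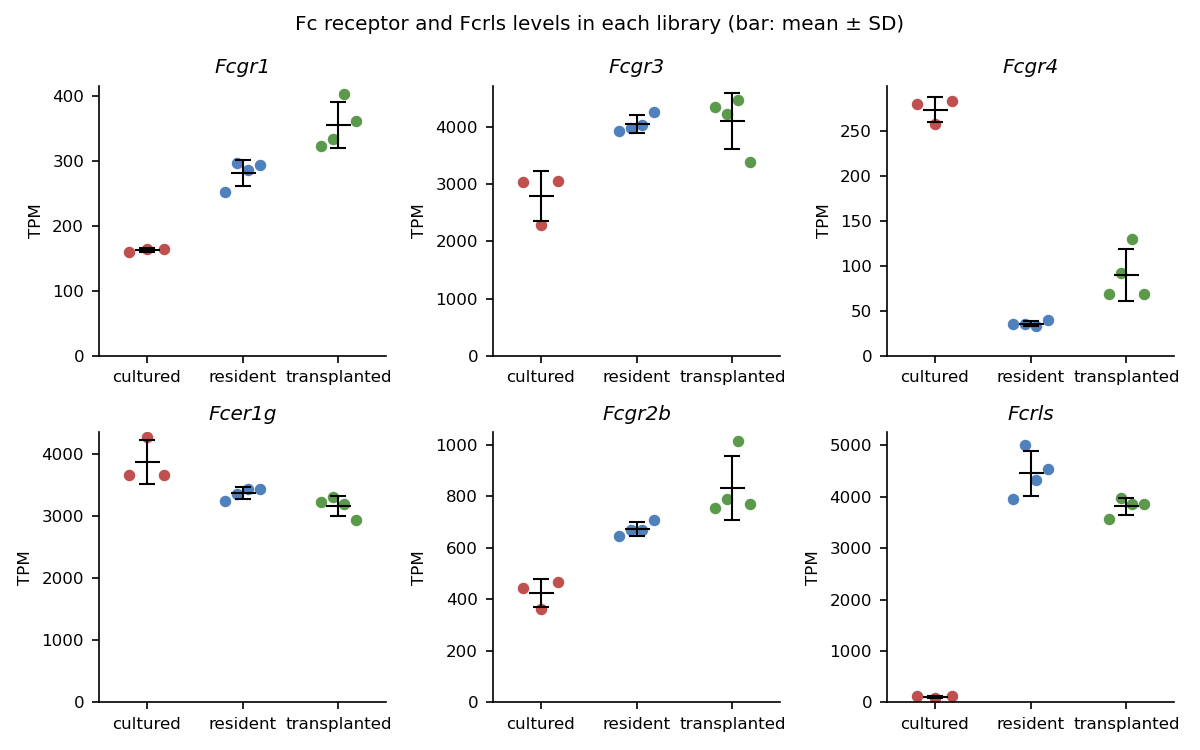
Level of each gene in TPM (vertical axis, starting at 0) in each library, 1 point per library, with the group mean and SD as a bar, for 3 cultured, 4 resident and 4 transplanted libraries. Fcgr4 is highest in culture and lowest in resident cells, with the transplanted libraries between 68.5 and 130.2 TPM, and Fcrls is near the floor of its axis in culture only.

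Between groups the main measure was CPM, the read count per library size, scaled by TMM, a method that centres the typical gene at no change, with edgeR's quasi-likelihood test and Benjamini-Hochberg adjustment over all genes tested (threshold 0.05). The total expected count was 26705034 to 28219696 in cultured libraries and 18692721 to 19965631 in the sorted ones, and each of the 6 genes had at least 338 counts in every library. The choice of scaling matters for cultured cells. The median gene moved by -0.93 (log2) between TMM and TPM in cultured against resident cells and by -0.58 with library totals alone, while transplanted against resident cells moved by less than 0.02. Of the genes that passed the test in cultured against resident cells, 50.5% were higher in culture with TMM, 31.4% with library totals and 20.3% in TPM. For transplanted against cultured cells the share that was higher in transplanted cells was 51.0%, 69.0% and 80.8%.

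The labelled cell type was checked against marker genes. The summed level of 6 microglial markers (P2ry12, Tmem119, Sall1, Cx3cr1, Siglech and Csf1r) was 33900 to 37300 CPM in resident, 28100 to 34900 in transplanted and 2240 to 4330 in cultured libraries, with none of the 6 at 0 in any group. Of 6 border-associated macrophage markers the sum was 44.8 to 89.6 CPM in resident, 22.0 to 49.1 in transplanted and 1860 to 2600 in cultured libraries. Of 5 monocyte markers it was 17.4 to 35.6, 1.82 to 4.28 and 601 to 1220 CPM in the same order. The sum of 4 neutrophil markers was at most 0.238 CPM in sorted and 48.0 to 53.2 in cultured libraries, with Mmp8 at 0 in resident cells. That of 6 natural killer cell markers was at most 1.82 CPM in every library, with Klre1 at 0 in resident cells, and that of 2 mast cell markers at most 0.634. In bulk RNA, fewer cells of a type and less RNA per cell cannot be told apart.

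The first comparison set transplanted against resident cells and asked how closely transplanted cells match the cells labelled as resident. Fcgr4 was higher in transplanted cells, Fcgr1 was slightly higher, and the other 4 genes did not pass the test. So 2 of the 6 genes passed upwards, against 7.17% of the 11929 genes tested, and 0 downwards, against 5.86% (1 at an unadjusted p under 0.05 with edgeR, Fcrls, which DESeq2 called and limma did not). The groups did not overlap in CPM for 3 of the 6 (Fcgr1, Fcgr2b and Fcgr4), against 19.7% of the genes tested. Fcgr4 lay far out: 2.37% of all genes tested were at least as far above resident cells.

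Fcgr4, the activating receptor for the IgG2 subclasses, stood at 16.8, 17.2, 16.1 and 19.6 CPM in resident libraries 1 to 4 and at 32.4, 44.9, 60.0 and 32.0 CPM in transplanted libraries 1 to 4. Every transplanted library was above every resident one, and the transplanted libraries spread more widely, library 3 being the highest. The log2 fold change was 1.29 ± 0.19 (SE; edgeR quasi-likelihood test, adjusted p = 0.0014), a 2.44-fold higher level. Leaving out any 1 library gave 1.06 to 1.40 on the log2 scale, and each of the 18 alternative analyses kept the call. Monocytes and neutrophils are known to carry Fcgr4. The monocyte marker sum was lower in transplanted than in resident libraries (1.82 to 4.28 against 17.4 to 35.6 CPM), the neutrophil sum was at most 0.238 CPM in both, and the macrophage sum was 22.0 to 49.1 against 44.8 to 89.6 CPM. Among the macrophage markers 5 of 6 passed the test downwards, against 5.86% of all genes tested, as did both testable monocyte markers. For Cd163 and Lyve1 among them that direction was fixed by the count filter, which they met in resident libraries only. The sixth macrophage marker, Ms4a7, went the other way, at 2.63 to 5.79 CPM in resident and 1.59 to 24.3 CPM in transplanted libraries, with a log2 fold change of 1.76 ± 0.62 (SE; edgeR adjusted p = 0.0954). The part of other cells in the Fcgr4 difference was not tested.

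Fcgr1 stood at 279, 329, 318 and 337 CPM in resident libraries 1 to 4 and at 352, 379, 432 and 396 CPM in transplanted libraries 1 to 4. The groups did not overlap, although resident library 4 and transplanted library 1 lay close together. The log2 fold change was 0.31 ± 0.08 (SE; edgeR quasi-likelihood test, adjusted p = 0.0367). This call rested on the full set of libraries. Leaving out 1 library gave 0.24 to 0.35, with adjusted p reaching 0.104, and only the fit without transplanted library 1 kept it; without any 1 of the 4 resident libraries or of transplanted libraries 2, 3 and 4 it was lost.

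Fcgr3, the most abundant of the 4 receptors, was at 2061, 2111, 2120 and 2322 CPM in resident libraries 1 to 4 and at 2254, 2272, 2270 and 1748 CPM in transplanted libraries 1 to 4. Transplanted libraries 1 to 3 lay among the resident ones and transplanted library 4 lay below them all. The log2 fold change of -0.01 ± 0.09 (SE; edgeR adjusted p = 0.972) changed sign without resident library 4, without transplanted library 4 and in TPM, and passed the test in none of these. Fcer1g, the chain these receptors need, was at 653, 680, 682 and 706 CPM in resident libraries 1 to 4 and at 632, 678, 610 and 556 in transplanted libraries 1 to 4. The groups overlapped, and the log2 fold change was -0.13 ± 0.07 (SE; edgeR adjusted p = 0.277).

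Fcgr2b, the inhibitory receptor, was at 356, 371, 370 and 404 CPM in resident libraries 1 to 4 and at 409, 446, 540 and 417 in transplanted libraries 1 to 4. All transplanted libraries were above all resident ones, by a narrow gap between 404 and 409 CPM. Its log2 fold change of 0.28 ± 0.09 (SE; edgeR adjusted p = 0.0793) missed the threshold in the main fit and passed it with DESeq2 (0.26, adjusted p = 0.0417). Because reads are divided between Fcgr2b and Fcgr3, their counts were also added together. The sum had a log2 fold change of 0.04 ± 0.09 (SE; edgeR adjusted p = 0.809). Fcgr3 supplied most of the sum, with a mean of 46522 counts in resident libraries against 8107 for Fcgr2b. The sum therefore cannot show whether Fcgr2b itself differed.

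Fcrls was at 3369, 4290, 3700 and 4016 CPM in resident libraries 1 to 4 and at 3010, 3476, 3184 and 3252 in transplanted libraries 1 to 4. The groups overlapped by resident library 1 and transplanted library 2. The log2 fold change was -0.25 ± 0.08 (SE; edgeR adjusted p = 0.0834). It passed the threshold, at -0.32 and -0.30, when either of those libraries was left out (adjusted p = 0.045 and 0.0483), and with DESeq2 (-0.26, adjusted p = 0.0242). Of the 6 microglial markers, 2 passed the test downwards and none upwards, against 5.86% and 7.17% of all genes tested.

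The second comparison set cultured against resident cells. With TMM all 6 genes passed the test, 5 higher in culture and 1 lower, and none of their groups overlapped in CPM. Of the 12406 genes tested 37.9% were higher, 37.2% lower and 75.7% did not overlap, so that passing was the usual outcome, and in TPM Fcgr1, Fcgr2b and Fcgr3 changed direction. The shift of Fcgr4 and Fcrls was larger than usual: 5.14% of the genes tested were at least as far above resident cells as Fcgr4 and 3.77% at least as far below as Fcrls.

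Fcgr4 stood at 283, 278 and 273 CPM in cultured libraries 1 to 3, against at most 19.6 CPM in any resident library. The log2 fold change was 4.03 ± 0.11 (SE; edgeR adjusted p = 6.88e-09), a 16.4-fold higher level. It was 3.45 with library totals and 2.89 in TPM, a 7.43-fold higher level. The monocyte and border-associated macrophage marker sums given above were also higher in cultured libraries, but single markers were mixed. Of 6 macrophage markers 3 were called higher and 2 lower (Cd163 and Lyve1) with TMM. Of 4 monocyte markers tested 3 were higher and 1 lower (Plac8), against 37.9% and 37.2% of all genes tested. Lyve1 and Plac8 met the count filter in resident libraries only, which fixed their direction. The part of such cells in the Fcgr4 result was not tested. Fcrls went the other way, at 215, 153 and 214 CPM in cultured libraries 1 to 3 against 3369 to 4290 in resident ones. Its log2 fold change was -4.27 ± 0.18 (SE; edgeR adjusted p = 6.63e-08), a 19.3-fold lower level in culture, and -5.37 in TPM, a 41.2-fold lower level. All 6 microglial markers were lower too, under TMM and in TPM, where 37.2% and 68.4% of all genes tested were lower.

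Fcer1g was at 1572, 1979 and 1470 CPM in cultured libraries 1 to 3, all above the resident ones. The log2 fold change was 1.34 ± 0.12 (SE; edgeR adjusted p = 9.58e-06) with TMM, 0.75 with library totals and 0.19 in TPM, where it no longer passed (limma adjusted p = 0.09). For the other receptors the scaling decided the direction. Cultured libraries 1 to 3 held Fcgr1 at 373, 406 and 367 CPM, Fcgr2b at 522, 452 and 521 CPM and Fcgr3 at 3379, 2712 and 3241 CPM. With TMM these were higher than in resident cells, by 0.31 ± 0.11 for Fcgr1 (SE; edgeR adjusted p = 0.024), 0.45 ± 0.10 for Fcgr2b (0.00366) and 0.57 ± 0.11 for Fcgr3 (0.0012) on the log2 scale. The Fcgr1 call was lost without cultured library 1 or 3 or resident library 1, 2 or 3 (0.23 to 0.32 over all 7 fits that left out 1 library). In TPM the same 3 genes were lower in culture, by -0.78, -0.67 and -0.55, and passed limma's test in that direction. With library totals they were at -0.27, -0.14 and -0.02. Set against the median of all genes under the same scaling, the 3 genes were above it both with TMM (0.33, 0.46 and 0.59) and in TPM (0.17, 0.28 and 0.40).

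**Figure D2:**
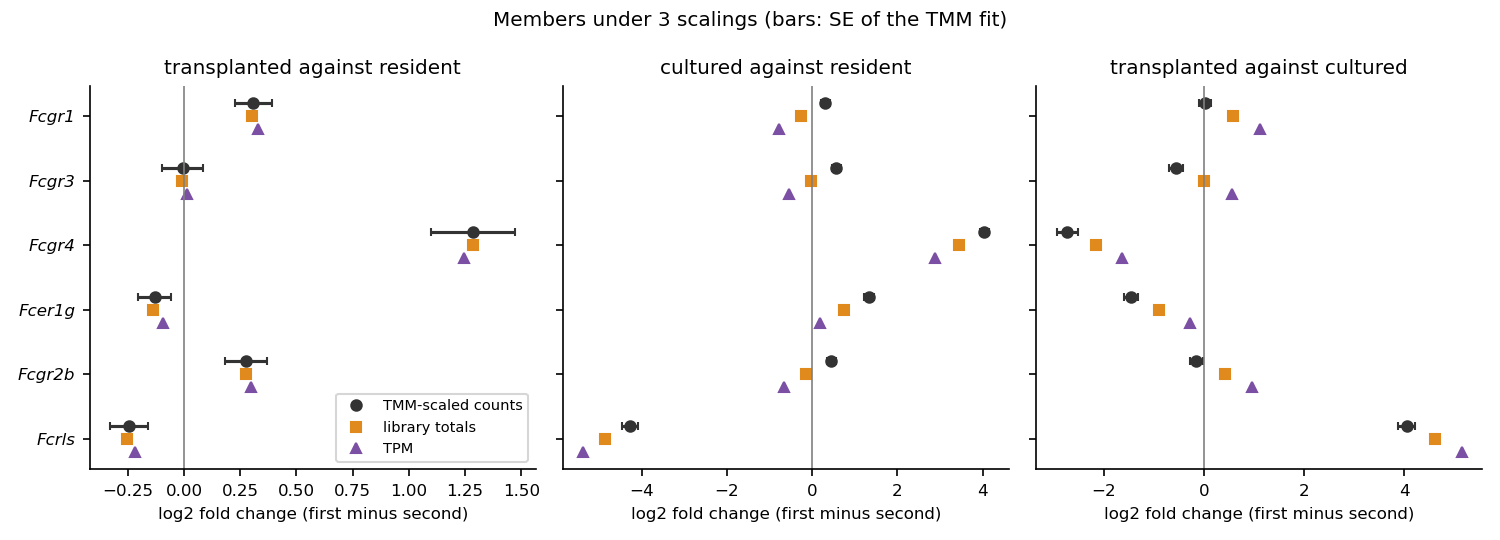
Log2 fold change (horizontal axis) of each gene in the 3 comparisons, under TMM-scaled counts (circles, with SE), library totals (squares) and TPM (triangles). In transplanted against resident cells the 3 scalings coincide, whereas in cultured against resident cells Fcgr1, Fcgr2b and Fcgr3 lie on opposite sides of 0 under TMM and TPM, and Fcgr4 and Fcrls stay on 1 side.

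The third comparison set transplanted against cultured cells. It shares its libraries with the comparisons above and adds no independent evidence to them. With TMM 1 of the 6 genes was higher, against 36.9% of the 12284 genes tested, and 3 were lower, against 35.5%. Fcrls was higher in transplanted cells, at a log2 fold change of 4.05 ± 0.17 (SE; edgeR adjusted p = 4.32e-08). Fcgr4 was lower, by -2.73 ± 0.22 (SE; edgeR adjusted p = 2.21e-06), as was Fcer1g, by -1.45 ± 0.14 (SE; edgeR adjusted p = 8.9e-06), and these 3 kept their direction under library totals and TPM. Fcgr3 was lower by -0.56 ± 0.14 with TMM (SE; edgeR adjusted p = 0.0052) and higher by 0.56 in TPM. Fcgr1 (0.01 ± 0.12, edgeR adjusted p = 0.922) and Fcgr2b (-0.15 ± 0.13, edgeR adjusted p = 0.327) did not pass with TMM and were higher by 1.11 and 0.97 in TPM, where limma's test called both.

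Transplanted cells can be placed on the line from cultured (0) to resident (1), in log2 CPM, for the 3 genes that differed at least 2-fold between those ends. Fcrls was at 0.94 of the way, with single libraries between 0.92 and 0.97. Fcgr4 was at 0.69, with single libraries between 0.55 and 0.78. Fcer1g was at 1.11, at or beyond the resident level, with single libraries between 1.00 and 1.23. Its 2-fold difference between the ends held in CPM but not in TPM, where cultured and resident cells differed 1.14-fold. So Fcrls and Fcer1g lay close to the resident level, and Fcgr4 lay between the ends in every transplanted library.

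Ratios between genes of 1 library do not depend on how libraries are scaled, and they carry no test here. The summed level of the activating receptors Fcgr1, Fcgr3 and Fcgr4 divided by that of inhibitory Fcgr2b, in TPM, was 7.81, 7.47 and 7.53 in cultured libraries 1 to 3, between 6.46 and 6.52 in resident libraries, and 6.30, 5.88, 4.93 and 4.95 in transplanted libraries 1 to 4. The means were 7.60 ± 0.18 (SD, n = 3), 6.49 ± 0.026 (SD, n = 4) and 5.52 ± 0.68 (SD, n = 4), and no pair of groups overlapped. The ratio was thus highest in culture and lowest after transplantation. It is mostly a ratio of Fcgr3 to Fcgr2b (6.57, 6.02 and 4.98 in the same order), since Fcgr3 made up 86.3%, 92.7% and 90.2% of the activating sum, and it is the ratio most exposed to the reads that these 2 genes share.

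The composition of the activating receptors differed as well. Fcgr4 was 8.53% ± 0.83 of their sum in cultured (SD, n = 3), 0.823% ± 0.037 in resident (SD, n = 4) and 1.95% ± 0.48 in transplanted libraries (SD, n = 4), without overlap between groups. Its ratio to Fcgr2b was 0.648, 0.0534 and 0.106 in that order, also without overlap. The ratio of Fcgr1 to Fcgr2b, at 0.389, 0.419 and 0.429, overlapped between all groups. The adaptor Fcer1g relative to the activating sum was 1.22 ± 0.30 in cultured, 0.771 ± 0.018 in resident and 0.698 ± 0.054 in transplanted libraries; cultured libraries lay above both others, and the latter pair overlapped. The ratio of Fcrls to Fcgr3 was 0.0385 in cultured, 1.10 in resident and 0.939 in transplanted cells.

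**Figure D3:**
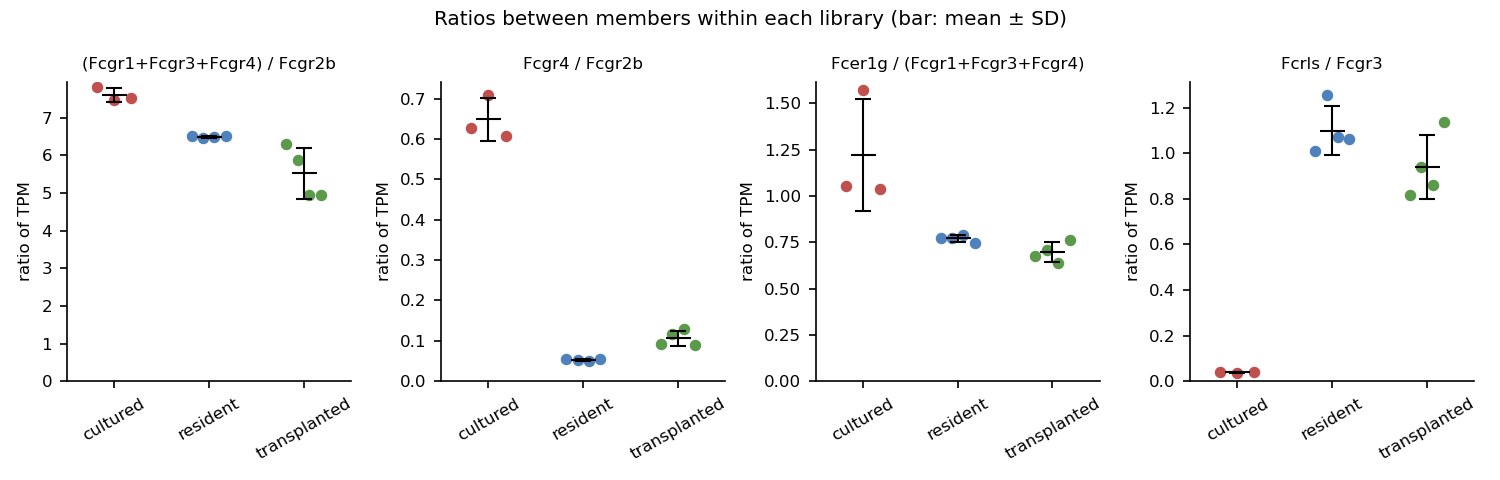
Ratios between genes within each library, in TPM (vertical axes, starting at 0), 1 point per library with the group mean and SD. The activating-to-inhibitory ratio falls from 7.60 in cultured to 6.49 in resident and 5.52 in transplanted cells, and the ratio of Fcgr4 to Fcgr2b is 0.648, 0.0534 and 0.106.

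Other Fc receptors were described as a list of 13 genes, of which 10 are in the table and 6 could be tested. In transplanted against resident cells 0 of 6 passed with edgeR, where 7.17% of all genes tested were higher and 5.86% lower. At those shares 0 calls among 6 genes would be usual. At an unadjusted p under 0.05 with edgeR 3 passed, all lower, and 0 passed with DESeq2 or limma. The median log2 fold change was -0.15, against 0.02 for all genes. In cultured against resident cells 1 was higher and 3 were lower with TMM, against 37.9% and 37.2% of all genes tested. Of the 3, Fcer2a met the count filter in resident libraries only, which fixed its direction. In TPM, where Fcer2a and Trim21 were too low to test, 1 was higher and 3 lower, Fcrlb being the third, against 17.4% and 68.4% of all genes in TPM. The neonatal receptor Fcgrt, which recycles IgG inside cells, was at 645 ± 45.5 TPM in culture (SD, n = 3) and 203 ± 15.3 in resident cells (SD, n = 4), a log2 fold change of 2.77 ± 0.11 (SE; edgeR adjusted p = 4.85e-08). The Fc receptor-like gene Fcrl1 was at 2.37 ± 0.51 TPM in culture and 106 ± 10.95 in resident cells, a log2 fold change of -4.43 ± 0.17 (SE; edgeR adjusted p = 4.26e-08). It stood at 86.1 ± 13.98 TPM in transplanted cells, so that Fcrl1 was low in the same group as Fcrls. The lower Fcrl5 (-1.59) and the low-affinity IgE receptor Fcer2a (-2.91) were near the bottom of the range, at 5.88 and 0.80 TPM in resident cells. Fcrlb and Trim21, the cytosolic antibody receptor, were at or below 1.51 TPM in every group and did not pass edgeR's test in any of the 3 comparisons. In transplanted cells the log2 fold change against resident cells, none of which passed, was -0.25 for Fcgrt, -0.31 for Fcrl1, -0.04 for Fcrl5, 0.24 for Fcer2a, -1.14 for Fcrlb and 0.23 for Trim21.

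Of 8 receptors that pair with the Fcer1g chain, 5 could be tested in cultured against resident cells. Clec4d, Clec4e and Clec4b1 met the count filter only through the cultured libraries, so their direction was fixed by the filter and they are given as values. Clec4d, a C-type lectin that senses mycobacterial lipids, was at 225 ± 19.04 TPM in culture (SD, n = 3) and 0.11 ± 0.084 in resident cells (SD, n = 4), whose libraries held at most 2 counts each. The mean count of Clec4d was 5140 in cultured, 1.25 in resident and 5.75 in transplanted libraries, that of Clec4e 2274, 1.0 and 3.25, and that of Clec4b1 148.3, 1.25 and 1.0. The other 2, Clec4n and Pira2, were higher in cultured than in resident cells and lower in transplanted than in cultured cells, under TMM and in TPM. Of all genes tested 37.9% and 35.5% were called in those directions with TMM, and 17.4% and 16.2% in TPM. Clec4n, a C-type lectin for fungal cell walls, had a log2 fold change of 8.13 ± 0.32 in cultured against resident cells (SE; edgeR adjusted p = 5.19e-08), and Pira2, an activating receptor with near-identical copies, one of 4.08 ± 0.39 (SE; edgeR adjusted p = 1.22e-05). In transplanted against resident cells these 2 could be tested and 0 passed with edgeR, where 7.17% of all genes tested were higher and 5.86% lower. Of the 2, 1 was at an unadjusted p under 0.05 with edgeR, and 0 passed with DESeq2 or limma. With 2 genes, 0 calls would be usual at those shares. The monocyte and neutrophil marker sums were highest in the cultured libraries too, and their part in this was not tested.

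Genes of ITAM signalling, the cascade below Fcer1g, passed at about the usual rate in transplanted against resident cells: 2 of 21 tested were higher, against 7.17% of all genes tested, and 0 lower, against 5.86%, with edgeR (1 lower at an unadjusted p under 0.05, 1 with DESeq2, 0 with limma). Their median was 0.05, against 0.02 for all genes. Neither call was firm, and with 1 library left out the number higher was 0 to 2. The Src-family kinase Fgr was at 3.72 ± 0.59 TPM in resident and 7.88 ± 2.79 in transplanted cells (SD, n = 4 each). Its log2 fold change was 1.02 ± 0.25 (SE; edgeR adjusted p = 0.0246), and the call was lost without resident library 1, 2 or 4 or transplanted library 3 or 4 (0.81 to 1.16). Sh3bp2, an adaptor that binds Syk, named after its values were seen, was at 82.7 ± 8.54 and 105 ± 11.9 TPM, a log2 fold change of 0.32 ± 0.09 (SE; edgeR adjusted p = 0.0496), a call lost without resident library 2, 3 or 4 or transplanted library 1, 3 or 4 (0.24 to 0.37). Syk itself was at 94.2 ± 11.2 and 98.7 ± 9.50 TPM, a log2 fold change of 0.05 ± 0.09 (SE; edgeR adjusted p = 0.776). In cultured against resident cells 9 of 22 were higher and 10 lower with TMM, and 4 and 16 in TPM, near the shares over all genes of 37.9% and 37.2% with TMM and 17.4% and 68.4% in TPM. Vav3, an exchange factor for small GTPases, was the furthest above resident cells, at 2.69 ± 1.17 TPM in culture and 0.07 ± 0.05 in resident cells. It met the count filter through the cultured libraries only, which fixed its direction; without it 8 of 21 were higher. Vav3 had no count in any transplanted library, which sets it at least 327-fold higher in cultured than in transplanted cells, against a floor of 3 counts over the group. Pik3r1, the regulatory subunit of phosphoinositide 3-kinase, was the furthest below, at -1.57 ± 0.12 (SE; edgeR adjusted p = 2.57e-06), and it was lower in TPM too.

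In the list of ITIM receptors and phosphatases, the inhibitory side to which Fcgr2b belongs, 2 of 17 were higher in transplanted than in resident cells, against 7.17% of all genes tested, and 1 was lower, against 5.86%. Lilrb4a, an inhibitory receptor of myeloid cells, was at 8.09 ± 0.80 TPM in resident and 24.9 ± 12.3 in transplanted cells (SD, n = 4 each), a log2 fold change of 1.61 ± 0.34 (SE; edgeR adjusted p = 0.0104). Pirb, named after its values were seen, is an inhibitory receptor for MHC class I and was at 34.7 ± 3.06 and 71.7 ± 11.3 TPM, a log2 fold change of 1.02 ± 0.10 (SE; edgeR adjusted p = 0.00011). Both calls held without any 1 library. Lilrb4a and Pirb belong to a family with near-identical copies, so their counts may include reads of relatives. Csk, the kinase that restrains Src-family kinases, was lower by -0.30 ± 0.08 (SE; edgeR adjusted p = 0.0417), a call that was lost without any 1 of the resident libraries or of transplanted libraries 3 and 4. The phosphatases did not pass: Inpp5d was at 515 ± 46.2 TPM in resident and 520 ± 31.7 in transplanted cells, and Ptpn6, which encodes SHP-1, at 495 ± 27.6 and 557 ± 70.4.

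In cultured against resident cells 7 of the 17 were higher and 8 lower with TMM, and 4 and 11 in TPM, against 37.9% and 37.2% of all genes with TMM and 17.4% and 68.4% in TPM. Inpp5d, the phosphatase that Fcgr2b recruits, was at 49.8 ± 6.39 TPM in culture (SD, n = 3). Its log2 fold change was -2.43 ± 0.18 (SE; edgeR adjusted p = 2.44e-06), and -3.35 in TPM. Lilrb4a was again the furthest above resident cells (7.04 ± 0.17; edgeR adjusted p = 6.03e-09), and Lair1, an inhibitory collagen receptor, the furthest below (-3.58 ± 0.12; edgeR adjusted p = 2.44e-08). Ptpn6 was at -0.25 ± 0.17 with TMM, where it did not pass, and at -1.38 in TPM, where it did.

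Of 16 actin genes of the phagocytic cup, the membrane fold that closes around an antibody-coated particle, 2 were higher and 1 was lower in transplanted than in resident cells, against 7.17% and 5.86% of all genes tested. Gsn, an actin-severing protein, was at 4.73 ± 0.80 TPM in resident and 9.69 ± 2.01 in transplanted cells (SD, n = 4 each), a log2 fold change of 1.02 ± 0.18 (SE; edgeR adjusted p = 0.00454). Nckap1l, a subunit of the haematopoietic WAVE complex, was lower by -0.27 ± 0.06 (SE; edgeR adjusted p = 0.014). The calls of Gsn and Nckap1l held without any 1 library. The second higher gene, Myo1f, a myosin of leukocytes named after its values were seen, was at 163 ± 12.9 and 207 ± 13.4 TPM. Its log2 fold change was 0.32 ± 0.08 (SE; edgeR adjusted p = 0.0317), and the call was lost without resident library 2, 3 or 4 or transplanted library 1, 2 or 4 (0.26 to 0.36). In cultured against resident cells 7 were higher and 5 lower with TMM, and 5 and 11 in TPM, against the same shares over all genes as for the lists above. Gsn was the furthest above (6.12 ± 0.24; edgeR adjusted p = 4.84e-08) and Elmo1, part of a Rac exchange factor used in engulfment, the furthest below (-3.76 ± 0.25; edgeR adjusted p = 1.33e-06).

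In transplanted against cultured cells the lists mirrored that comparison, with which they share the cultured libraries. Of all genes tested 36.9% were higher and 35.5% lower with TMM, and 68.1% and 16.2% in TPM. Of the 22 ITAM genes 10 were higher and 7, Vav3 included, lower with TMM, and 17 and 3 in TPM. Of the ITIM genes 6 were higher and 7 lower with TMM, and 11 and 4 in TPM, with Lair1 the furthest above (3.57 ± 0.15; edgeR adjusted p = 4.68e-08) and Dok2, an adaptor that damps kinase signals, the furthest below (-6.80 ± 0.19; edgeR adjusted p = 4.9e-09). Of the phagocytic cup genes 6 were higher and 7 lower with TMM, and 11 and 5 in TPM, with Elmo1 the furthest above (3.64 ± 0.25; edgeR adjusted p = 8.81e-07) and Gsn the furthest below (-5.08 ± 0.25; edgeR adjusted p = 1.08e-07).

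**Figure D4:**
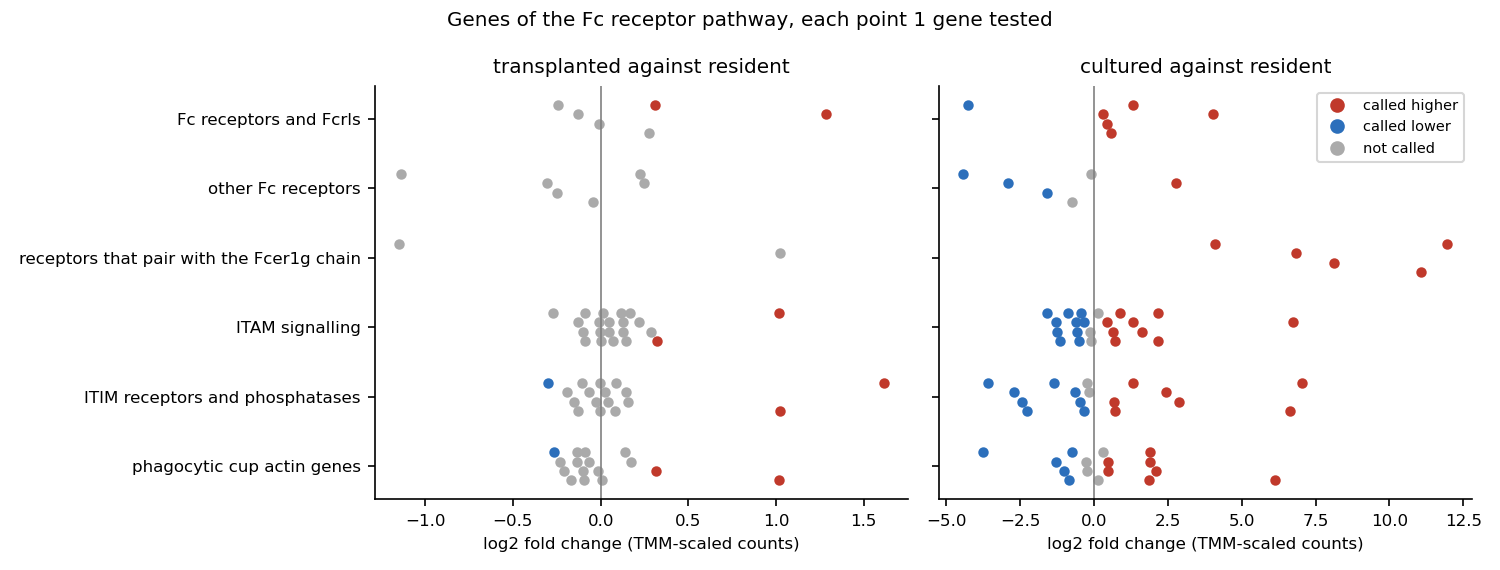
Log2 fold change (horizontal axis, TMM-scaled counts) of each tested gene of the 6 Fc receptor genes and of 5 related lists, in transplanted against resident cells (left) and cultured against resident cells (right), coloured by the edgeR call. Most genes lie near 0 on the left and on both sides of 0 on the right. On the left Fcgr4, Lilrb4a, Pirb, Fgr and Gsn stand apart upwards and were called. Pira2 stands apart upwards too, and Clec4n and Fcrlb downwards, without a call.

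The chromosome 1 cluster was set beside its neighbours, all genes within 100000 bases of its ends or inside it. Of its 19 measured neighbours, 14 could be tested in transplanted against resident cells, and 0 passed with edgeR (5 at an unadjusted p under 0.05; 3 with DESeq2, 0 with limma). Over all genes tested 7.17% were higher and 5.86% lower, so that few calls among 14 genes would be usual, and the difference between Fcgr4 and its neighbours was not tested. In cultured against resident cells 3 of 14 neighbours were higher and 7 lower with TMM, and 2 and 9 in TPM, against 37.9% and 37.2% of all genes with TMM and 17.4% and 68.4% in TPM. Adamts4, among the 7, met the count filter in resident libraries only. The 4 Fc receptor genes of the cluster were all higher with TMM and Fcgr2b and Fcgr3 were lower in TPM. Around Fcrls and Fcgr1 on chromosome 3, 10 neighbours could be tested in transplanted against resident cells and 0 passed with edgeR (0 at an unadjusted p under 0.05; 0 with DESeq2 or limma).

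**Figure D5:**
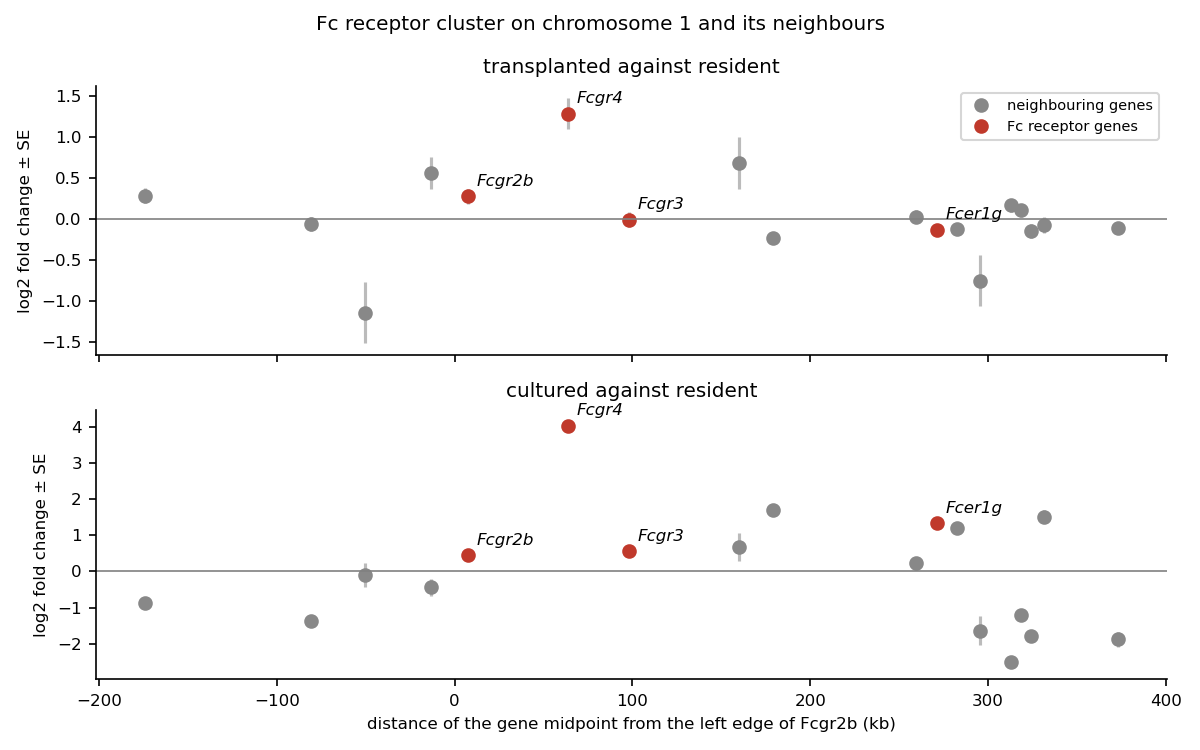
Log2 fold change with SE (vertical axis) of the Fc receptor genes (red) and their tested neighbours (grey) on chromosome 1 against the distance of each gene's midpoint from the left edge of Fcgr2b, in kilobases. In transplanted against resident cells Fcgr4 is the 1 gene of the cluster that passed the test, at 1.29.

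The genes with the most similar pattern to each were found by the root mean square distance of mean-centred log2 CPM over all 11 libraries, among 12589 other genes. Fcgr1 was nearest to Zfp511 (0.0793), Kidins220 (0.0822) and Ttc39b (0.0835), Fcgr2b to Zfp511 (0.0906), Prps1 (0.0959) and Syncrip (0.104), Fcgr3 to Rnft1 (0.0708), Ube2n (0.0754) and Sar1a (0.0779), and Fcer1g to Eif6 (0.063), Psma1 (0.0658) and Hmgn1 (0.0666). These patterns were common: between 755 and 1339 genes lay within 0.25 of each. Fcrls was nearest to Rab39 (0.117), Endod1 (0.134) and Tgfbr1 (0.167), a receptor for TGF-beta, and 21 genes lay within 0.25. Fcgr4 had 0 genes within 0.25; its nearest were Bcl2a1a (0.27), whose near-identical copies make its counts uncertain, Nceh1 (0.285) and Htatip2 (0.286). Among the 6 genes themselves the closest were Fcgr1 and Fcgr2b, at 0.127, and the furthest Fcgr4 and Fcrls, at 3.44.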

How the data were processed

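The authors deposited 1 table of 11 libraries, per the file headers. It holds expected counts (estimated reads per gene, unscaled) and TPM and FPKM values (scaled for length and depth by the authors). FPKM was used only in place of TPM, as a check of ratios between genes. HISAT, Bowtie2 and GRCm38.p6 were used, per the submitters' processing notes; versions, read counter, annotation and strand were not given in the sources used here. RNA was extracted with TRIzol and made into Smart-Seq libraries, per the labels' protocols. A RefSeq table of the same build matched 16845 of 16894 identifiers (99.7%). Rounded expected counts were tested with edgeR 4.0.16 (filterByExpr, TMM, quasi-likelihood, each pair of groups fitted alone; R 4.3.3), and log2(TPM + 1) with limma 3.58.1; fold changes in TPM include that pseudocount. SE is the absolute log2 fold change over the square root of F. The test was tried on simulated counts. DESeq2 1.42.0, other scalings and filters, a replicate block and leaving out each library were the alternatives. Named genes were all 6, Syk, Inpp5d, Ptpn6, the tested other Fc receptors, the called gene with the largest rise and fall in each list, and 3 nearest genes each. The genes and lists were chosen with earlier results of these data known. Some items are not reported here. The summed markers of other cells, in CPM for cultured, resident and transplanted libraries in turn, were 1.31 to 2.24, 17.9 to 26.8 and 0.581 to 0.817 for B cells, 9.46 to 10.0, 38.0 to 56.2 and 13.4 to 18.3 for endothelial cells, 26.9 to 58.6, 209 to 265 and 142 to 267 for astrocytes, 170 to 205, 179 to 190 and 164 to 179 for oligodendrocytes, and 0.859 to 2.49, 4.84 to 6.86 and 4.5 to 6.24 for neurons.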

Additional observations from a re-analysis of the deposited data

Results flagged for a closer look

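Fcgr3 in transplanted library 4, at 1750 CPM, stood apart from the other 3 transplanted libraries, the nearest of which was at 2250 CPM (Dixon's Q of 0.966). It was 1 of 18 groups examined, and chance alone marks about 1 group in 20. Fcer1g (556 CPM) and Fcgr4 (32.0 CPM, against 32.4 in the next) were also lowest in that library among the transplanted ones, whereas Fcgr2b (417 CPM), Fcgr1 (396 CPM) and Fcrls (3252 CPM) were not.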

How the results depend on the processing

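Of 315 re-computed fold changes of the 6 genes, 265 kept their direction and side of the threshold, 18 lost a call, 7 gained one and 25 changed sign. Fcgr4 kept both in all 3 comparisons under every alternative run, and Fcrls in the 2 comparisons with cultured cells. The log2 fold changes that did not were as follows. In transplanted against resident cells DESeq2 called Fcgr2b (0.26) and Fcrls (-0.26), 1 fit of all 3 groups lost Fcgr1 (0.30) and called 912 genes in place of 1554, and Fcgr3 was at 0.01 in TPM with a pseudocount of 1 or 0.1 (0.013367 and 0.0133681) and at 0.039 with the Fcgr2b and Fcgr3 counts added together, a setting chosen after seeing the data. Leaving out 1 library gave 0.24 to 0.35 for Fcgr1, -0.054 to 0.077 for Fcgr3 and -0.32 to -0.20 for Fcrls. In cultured against resident cells Fcgr1 lost its call with upper quartile scaling (0.15) and without the count filter (0.26), and leaving out 1 library gave 0.23 to 0.32. With library totals Fcgr1, Fcgr2b and Fcgr3 were at -0.27, -0.14 and -0.018. In TPM they were at -0.78, -0.67 and -0.55 with a pseudocount of 1 and at -0.79, -0.67 and -0.55 with 0.1, and Fcer1g was at 0.19 with either. In transplanted against cultured cells Fcgr1 was at -0.01 with DESeq2 (-0.0110781) and with its size factors in edgeR (-0.0110825), and at -0.036 to 0.065 with 1 library left out. Fcgr1, Fcgr2b and Fcgr3 were at 0.58, 0.41 and 0.0075 with library totals, at 1.11, 0.97 and 0.56 in TPM with a pseudocount of 1, and at 1.12, 0.97 and 0.56 with 0.1. The cause of these changes was not tested, other than the shift of the median gene given with the scalings.

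Same-numbered libraries did not deviate together (correlations of -0.069 to 0.054), so the numbers were not taken as pairs. A replicate block lost the Fcgr1 call in cultured against resident cells (0.32, adjusted p = 0.0813, edgeR) and no other call of the 6 genes. The block kept only library numbers present in both groups. Resident or transplanted library 4 was therefore left out of the block fits with cultured cells, and the effect of the block alone was not tested. From CPM in place of TPM, which leaves out gene length, the activating-to-inhibitory ratio was 6.63 in resident cells, Fcgr4 over Fcgr2b was 0.56 in cultured and 0.046 in resident cells, and Fcer1g over the activating sum was 0.45, 0.27 and 0.24 in cultured, resident and transplanted cells. In log2 TPM the position of transplanted cells between cultured and resident was 0.57 for Fcgr4 and 1.47 for Fcer1g. The Fcer1g value has little meaning, since its cultured and resident levels differed by only 0.19 there, less than 2-fold. With at least 338 counts of each gene in every library, depth limits these values less than the number of libraries does.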

Other observations

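The summed level of the 4 IgG receptors Fcgr1, Fcgr2b, Fcgr3 and Fcgr4 was 5040 ± 192 TPM in resident and 5386 ± 591 in transplanted libraries (SD, n = 4 each) and overlapped between them. In cultured libraries it was 3659 ± 501 TPM (SD, n = 3), below every sorted library. This order is that of TPM only, since with TMM-scaled counts Fcgr1, Fcgr2b and Fcgr3 were each higher in cultured than in resident cells.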
